A study of Mus musculus with 12 samples.

Results

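The difference between 2 effects of mutant p53 on gene expression was measured in mouse pancreatic cancer cells. The endogenous effect was the change from fl-CCs to mt-CCs. Both are cancer cell lines of mice with Pdx1-Cre, which acts in the pancreatic epithelium; fl-CCs carry the Trp53fl (null) allele and mt-CCs carry Trp53 R172H. The transfected effect was the change from fl-CCs given an empty vector (EV) to fl-CCs given human mutant p53 R175H, the counterpart of the mouse mutation. Subtracting the transfected change from the endogenous change gave 1 value per gene, called here the difference between the settings. It used all 12 arrays of the series, 3 for each of the 4 groups, and was tested for 45037 probe sets that represented 18193 named genes. All cells grew in DMEM with serum to 60% confluency, and the medium of the EV and R175H cells also held the selection drug G418 at 0.6 mg/ml. Each group is 1 cell line in triplicate, so p-values here reflect how much cultures of the same line vary, and differences between lines and between p53 alleles cannot be told apart. Whether the transfected cells were clones or pools is not given in the sources used here, and the level of Trp53 itself was not analysed here.

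Wild-type p53 is a transcription factor that switches on genes of growth arrest, DNA repair and cell death. Mutants such as R172H and R175H have a misfolded DNA-binding domain, accumulate in tumor cells and are known to act through other transcription factors as well as through the loss of wild-type function.

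Values are log2 levels after RMA normalization, so a change of 1 is a doubling of the signal, and levels under 5 are called near background here. A gene was called at an adjusted p of 0.05 or less in limma. The difference between the settings was called for 12063 probe sets (26.8%), of which 6141 were higher and 5922 lower in the endogenous setting. By gene, 7160 of 18193 were called (39.4%), 3652 higher (20.1%) and 3508 lower (19.3%). Genes are represented by their probe set with the smallest p, and among the 12326 genes with a mean of at least 5 in any group, called brighter genes here, the share was 54.2%. The counts of the gene lists below stand beside these shares and are descriptions.

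Called genes were divided by what each setting did on its own. The endogenous change was called for 30.7% and the transfected change for 20.3% of probe sets, or 39.5% and 26.7% of genes. In 813 genes (4.47%) the level rose with endogenous mutant p53 and fell with the transfected form. In 763 genes (4.19%) it fell with the endogenous and rose with the transfected form. A further 3221 genes (17.7%) changed in the endogenous setting without a call in the transfected setting, and 1427 (7.84%) the other way round. In 543 genes (2.98%) both changes were called in the same direction with unlike sizes, the endogenous change being larger in 393 and the transfected change in 150. For 393 genes (2.16%) neither change passed alone. A change of at least 1 in both settings was seen in 77 genes of the first opposite class and 132 of the second.

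Across the 18193 genes, each at its brightest probe set, the endogenous and transfected changes had a Pearson r of 0.04 and a Spearman rho of 0.03, given as a description because genes are not independent replicates. Of 2753 genes called in both settings, 1576 moved in opposite directions and 1177 in the same direction. With each gene represented by its brightest probe set instead, 1192 moved in opposite and 1430 in the same direction, so which was the majority depended on that choice. At the brightest probe set, 598 of the 813 and 580 of the 763 genes stayed in their opposite class.

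**Figure D1:**
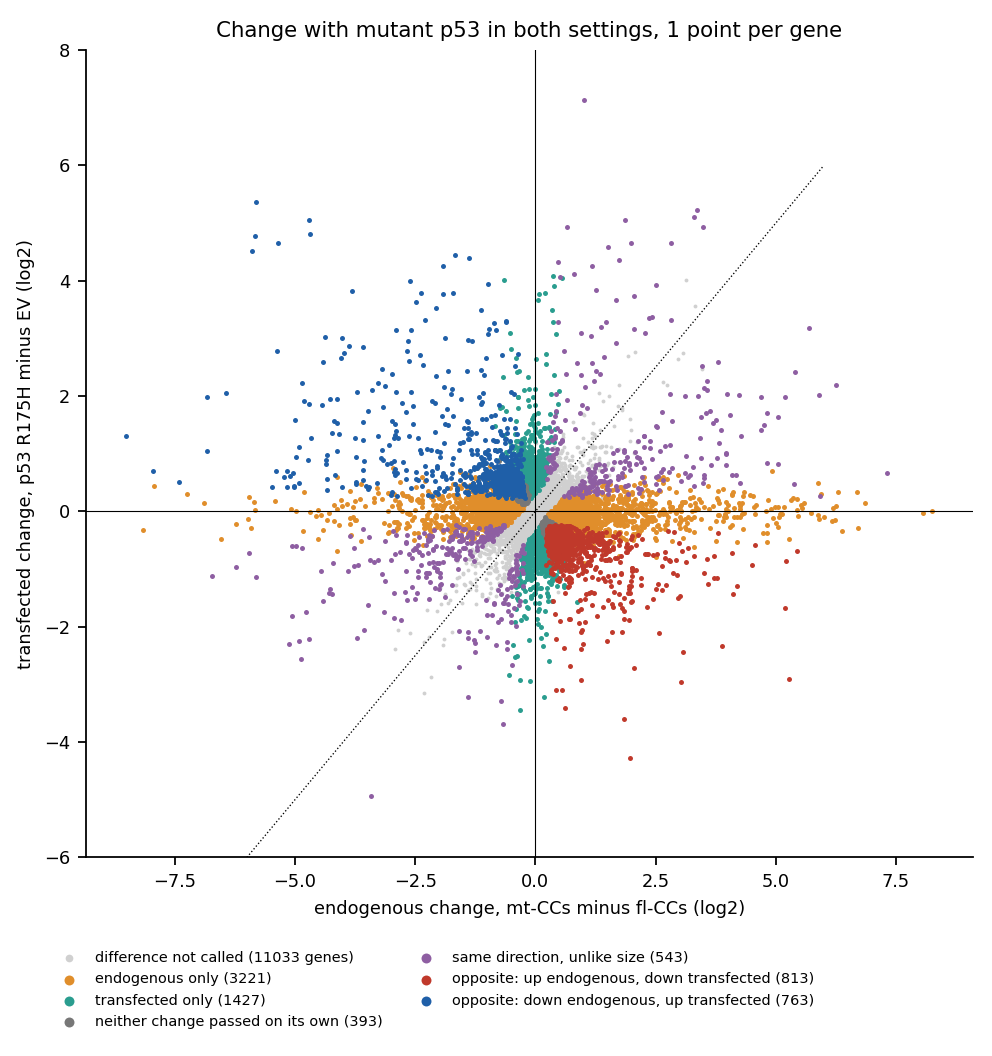
Each point is 1 of 18193 genes, with the endogenous change (mt-CCs minus fl-CCs) on the x axis and the transfected change (p53 R175H minus EV) on the y axis, both in log2 units, and colour gives the class. The 763 blue and 813 red genes lie in the quadrants where the changes have opposite signs, and the dotted line marks equal changes.

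The EV cells were themselves unlike the parental fl-CCs, with 5452 probe sets called between them (12.1%), and 3000 genes (16.5%). EV levels are therefore given beside many, but not all, of the results below. A transfected change given without them does not show whether EV or R175H lay away from fl-CCs. Where fl-CCs take the place of EV as the control below, the fl-CC arrays cancel out. Such a difference is mt-CCs minus R175H cells, a direct comparison of these lines. Libraries of a group correlated at 0.994 to 0.996, those of fl-CCs, EV and R175H among each other at 0.983 to 0.99, and mt-CCs with the others at 0.959 to 0.962. The Y-linked genes Kdm5d, Eif2s3y and Uty also differed among these lines. Kdm5d, a histone demethylase, read 6.04, 6.34 and 5.63 in fl-CCs, 7.77, 7.91 and 7.56 in mt-CCs, 2.61, 3.82 and 3.44 with EV and 7.66, 7.58 and 7.71 with R175H. EV cells were thus lowest of the 4 groups for this gene. Eif2s3y had means of 4.26, 6.32, 2.98 and 6.72 in the same order, and Uty 3.77, 5.44, 2.91 and 5.82. The part of these line differences in the results was not tested.

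The highest-ranked opposite changes, lower with endogenous and higher with transfected mutant p53, included Tm4sf4, Ambp, Afp, Serpina1b and Hao1, genes known from liver. Hepatocyte-type transcription factors such as HNF4A and ONECUT1 normally keep serum protein genes active in the liver, and some of them also work in pancreatic and intestinal epithelium. Tm4sf4, a tetraspan membrane protein of liver and intestine, read 11.58, 11.88 and 11.79 in fl-CCs, 6.31, 6.48 and 6.38 in mt-CCs, 7.87, 7.83 and 8.64 with EV and 12.71, 12.76 and 12.8 with R175H. No group overlapped another. Its endogenous change was -5.36 (SE 0.18) and its transfected change 4.65 (SE 0.18), a difference between the settings of -10.01 (SE 0.25, limma adjusted p = 1.57e-10). Ambp, the precursor of the serum proteins alpha-1-microglobulin and bikunin, read 9.53, 9.23 and 9.77 in fl-CCs, 5.17, 4.69 and 4.63 in mt-CCs, 5.88, 6.14 and 6.15 with EV and 10.56, 10.96 and 11.1 with R175H. The R175H arrays were the highest and the mt-CC arrays the lowest, and the changes were -4.68 and 4.82 (difference -9.5, limma adjusted p = 2.17e-10). Since 2 of the 3 mt-CC arrays were under 5, the difference is given also with every value under 5 set to 5, as -9.27 (limma adjusted p = 3.63e-08). Afp, the fetal serum protein alpha-fetoprotein, had values of 9.09, 8.96 and 8.6 in fl-CCs, 4.95, 4.96 and 5.27 in mt-CCs, 6.05, 6.55 and 6.12 with EV and 10.03, 10.02 and 10.18 with R175H. Again R175H was highest and mt-CCs lowest, with a difference of -7.65 (SE 0.22, limma adjusted p = 3.07e-10), or -7.62 with the 2 mt-CC values under 5 set to 5.

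For some genes all 3 arrays of a group were near background and the change is a lower bound, taken against a level of 5. Serpina1b, which encodes a form of the protease inhibitor alpha-1-antitrypsin and belongs to a family of close copies, read 8.36, 8.68 and 8.53 in fl-CCs and 8.31, 8.6 and 8.34 with R175H, against 2.44, 2.91 and 2.79 in mt-CCs and 3.12, 2.72 and 3.3 with EV. It was lower in mt-CCs by at least 3.52 and higher with R175H than with EV by at least 3.42 (limma adjusted p = 4e-11 for the difference). Hao1, a peroxisomal oxidase of the liver, followed the same pattern, with 7.98, 8.4 and 8.43 in fl-CCs and 7.52, 7.93 and 7.81 with R175H against 2.46, 2.35 and 2.5 in mt-CCs and 2.97, 2.91 and 3.03 with EV. For both genes the parental fl-CCs, which received no p53, were at about the level of the R175H cells.

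The same EV levels were compared with fl-CCs in all 12 genes that ranked highest in this direction by the smaller of their changes, with group means under 5 set to 5 (Tm4sf4, Igfbp5, Ambp, Afp, Serpina1b, Klhl13, Ugt2b36, Bcas1, Hao1, Ugt2b35, Disp2 and Cfb). EV lay below fl-CCs in all 12, by 1.71 to 5.48 (each called). R175H cells lay between -0.95 and 1.71 from fl-CCs, called above in 7, called below in 2 and not called in 3. EV against fl-CCs shares its control arrays with the endogenous and its EV arrays with the transfected change. Ranking on these changes therefore favored genes with EV below fl-CCs. Over all genes, EV against fl-CCs was called in 16.5%, in either direction.

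**Figure D2:**
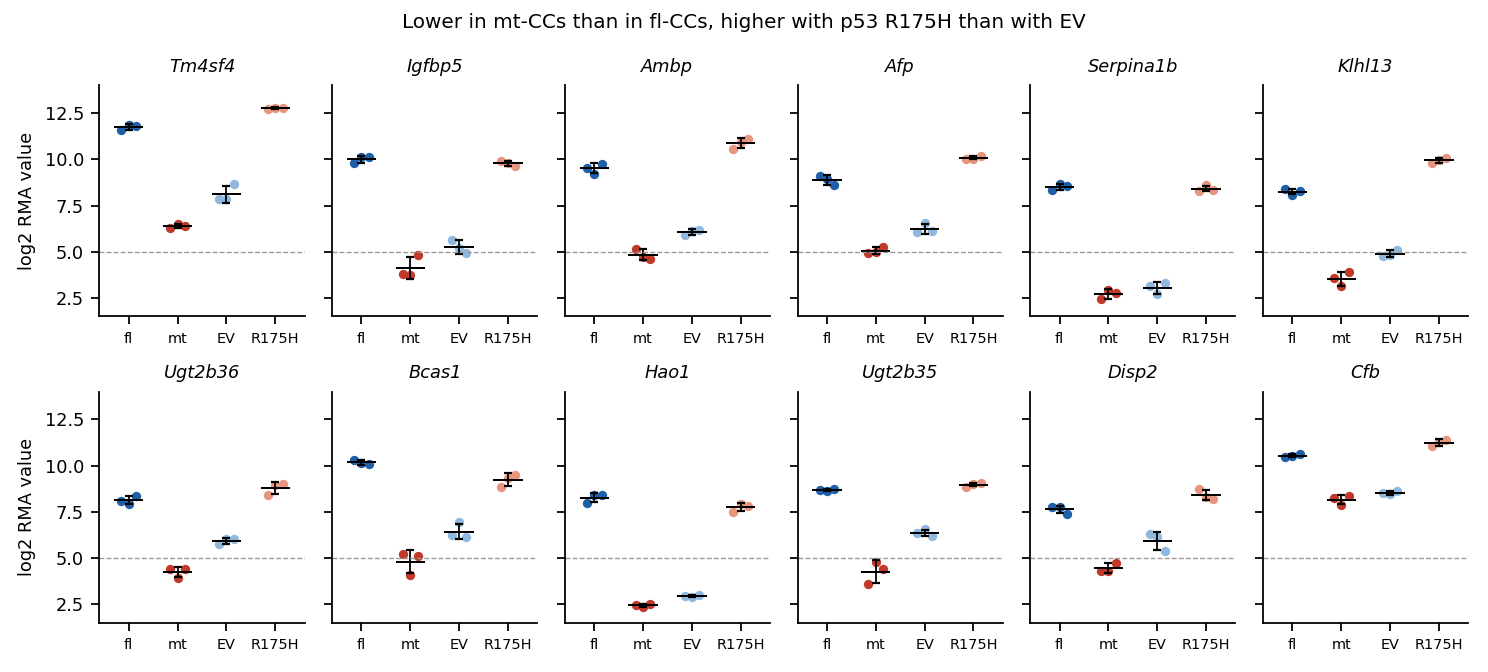
The log2 RMA value of every array is plotted for the 12 genes that fell from fl-CCs to mt-CCs and were higher with p53 R175H than with EV, with the mean as a line and the SD as the error bar (3 arrays per group); the dashed line marks a level of 5. In all 12 genes the EV arrays lie below the fl-CC arrays, which the ranking of these genes favored.

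The list of lineage factors and liver-type or gut-type genes held 52 measured members, 9 of them near background in every array. The difference was lower in 29 and higher in 6 (67.3% called, against 39.4% of all genes and 54.2% of the brighter genes), with a median of -0.62 against 0.01 over all genes. Opposite changes, lower with endogenous and higher with transfected mutant p53, were seen in 17 members (4.19% of all genes had them). Transcription factors and serum proteins were both among them. Hnf4a, a nuclear receptor of liver, gut and pancreas, read 12.36, 12.27 and 12.31 in fl-CCs, 8.74, 8.92 and 8.91 in mt-CCs, a mean of 11.93 ± 0.1 (SD, n = 3) with EV and 12.34, 12.38 and 12.37 with R175H. The endogenous change was -3.46 (SE 0.08) and the transfected change 0.43 (SE 0.08), so the groups of the endogenous setting were far apart and those of the transfected setting close. Foxa2, a pioneer factor of endoderm, changed by -0.77 and 0.3. Gata5 dropped by at least 4.11 in mt-CCs and rose by 0.71 with R175H. Apob, the main protein of lipoprotein particles, dropped by at least 7.09 and rose by 1.3. Apoa1 and Apoc2, further apolipoproteins, changed by -4.09 and -4.12 in the endogenous setting and by 1.34 and 1.95 in the transfected setting. Means in fl-CCs, EV and R175H were 10.13, 8.71 and 10.06 for Apoa1 and 10.34, 8.41 and 10.35 for Apoc2. For both genes R175H was close to the parental fl-CCs and EV lay below. Prox1, a homeobox factor of liver and lymphatic cells, rose with R175H by at least 2.46 and was near background in the other groups.

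Cdx2, the homeobox factor that specifies intestine, went the other way. It read 8.0, 7.54 and 7.52 in fl-CCs, 11.28, 10.92 and 11.37 in mt-CCs, 8.11, 8.04 and 7.54 with EV and 6.93, 6.82 and 6.77 with R175H, and no R175H array reached an EV array. The changes were 3.5 and -1.06 (difference 4.56, SE 0.25, limma adjusted p = 5.79e-08). Pdx1, the pancreatic factor whose promoter drives Cre in these mice, rose by 1.11 in mt-CCs and changed by -0.11, without a call, with R175H.

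Mmp13 and Mmp10, matrix metalloproteinases that cut collagen and other matrix proteins, moved in opposite ways. Of the 59 measured basement membrane and matrix genes, 3 had this pattern, which 4.19% of all genes had. Mmp13, a collagenase, read 6.22, 7.88 and 7.42 in fl-CCs, 3.98, 4.73 and 5.03 in mt-CCs, 5.62, 4.71 and 4.92 with EV and 9.78, 8.79 and 8.66 with R175H. Mmp10, a stromelysin, read 6.28, 7.31 and 7.5 in fl-CCs, 4.98, 5.36 and 4.55 in mt-CCs, 5.31, 5.96 and 5.87 with EV and 10.0, 8.81 and 8.88 with R175H. In both genes the R175H arrays were above all others, and the spread within groups was wider than for the serum protein genes. The endogenous and transfected changes were -2.6 and 3.99 for Mmp13 (difference -6.59, SE 0.62, limma adjusted p = 6.67e-06) and -2.07 and 3.52 for Mmp10 (difference -5.59, SE 0.52, limma adjusted p = 6.54e-06). Some mt-CC and EV arrays of these genes were under 5. With every value under 5 set to 5, the difference was -6.04 for Mmp13 (limma adjusted p = 0.000173) and -5.43 for Mmp10 (limma adjusted p = 0.000188). Their promoters are shown because both hold an AP-1 motif, the site of FOS and JUN dimers, a short way before the start of transcription. The sequences are the 120 bases before the start, 5′ to 3′ on the strand of the gene, from RefSeq (GRCm38.p6), with the motif TGANTCA in capitals: Mmp10 at chr9:7502222-7502341, plus strand, with the motif starting 63 bases before the start, and Mmp13 at chr9:7272394-7272513, plus strand, 35 bases before it.
Mmp10: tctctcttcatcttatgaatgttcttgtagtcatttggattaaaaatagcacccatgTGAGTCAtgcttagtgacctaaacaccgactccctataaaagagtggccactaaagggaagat
Mmp13: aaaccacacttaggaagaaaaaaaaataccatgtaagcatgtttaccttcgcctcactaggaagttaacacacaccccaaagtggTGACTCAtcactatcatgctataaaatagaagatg

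The motif was searched on both strands of windows from 250 bases before to 50 after the start of each gene. It was present in 7.54% of the windows of 14452 array genes, in 8.08% of the 619 genes that rose with endogenous and fell with transfected mutant p53, and in 8.03% of the 635 of the reverse class. Both shares were thus close to that of all genes. The p53 motif, 1 of the paired elements of the p53 consensus, was in 8.59% of all genes, 8.24% of the first and 9.76% of the second class. A match is a description of the letters only.

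NFkB is a family of transcription factors that drives inflammatory and survival genes, and mutant p53 is known to act with it. Of 49 measured direct NFkB targets, 28 rose and 8 fell in mt-CCs (20.2% and 19.4% of all genes), and 22 rose and 6 fell with R175H (13.4% and 13.3%). The list holds Bcl2, Cxcl1, Cxcl12, Nfkbia, Tnfrsf9 and Tnfsf11, which the study reported as changed between mt-CCs and fl-CCs. The counts in mt-CCs are therefore partly drawn from these same data. The median endogenous change was 0.51 and the median transfected change 0.27. The difference between the settings was higher in 19 and lower in 16 (71.4% called, against 39.4% of all genes and 54.2% of the brighter genes; median 0.02). Against parental fl-CCs in place of EV, 25 were higher and 12 lower. The mean level of the list was 7.32 to 7.46 in fl-CC, 7.11 to 7.2 in EV and 7.69 to 7.76 in R175H arrays. Opposite changes were seen in 5 of the first kind, higher with endogenous mutant p53, and 4 of the second (4.47% and 4.19% of all genes). The chemokine Cxcl12 read 10.38, 10.46 and 10.71 in mt-CCs and was near background in every array of the other groups (3.95, 4.27 and 4.46 in fl-CCs, 4.06, 4.07 and 4.41 with EV and 4.35, 4.5 and 4.68 with R175H). With values under 5 set to 5, its difference between the settings was 5.52 (limma adjusted p = 1.6e-09 for the values as deposited). Tnfsf11, which encodes RANKL, was likewise raised in mt-CCs by at least 2.22 and near background in the other groups. Tnfrsf9, a TNF receptor family member, moved in opposite directions, with 5.45, 5.79 and 5.51 in fl-CCs, 7.65, 7.64 and 7.73 in mt-CCs, 5.9, 6.03 and 5.9 with EV and 5.19, 5.0 and 5.89 with R175H. The fl-CC and mt-CC arrays were apart by more than the EV and R175H arrays, and the difference was 2.67 (SE 0.26, limma adjusted p = 9.99e-06). Bcl2, which blocks cell death, rose by 1.13 with endogenous and fell by 0.51 with transfected mutant p53 (difference 1.64, limma adjusted p = 1.36e-06). Its means were 11.15 in fl-CCs, 11.6 with EV and 11.09 with R175H.

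Cxcl1, a neutrophil chemokine, read 11.79, 12.04 and 11.95 in fl-CCs, 12.42, 12.48 and 12.55 in mt-CCs, 10.72, 11.14 and 11.21 with EV and 12.23, 12.28 and 12.22 with R175H. It rose in both settings, by 0.56 and 1.22, and the difference was -0.66 (SE 0.17, limma adjusted p = 0.0127). With fl-CCs in place of EV as the control, the difference had the other sign, 0.24 (limma adjusted p = 0.163). Nfkbia, the inhibitor that NFkB induces to limit itself, rose by 1.19 and 0.51 (difference 0.68, limma adjusted p = 0.00747), but its brightest probe set gave 0.34 (limma adjusted p = 0.107). The promoters of these genes hold the NFkB motif, searched on both strands and present in 79 of the 14452 windows (0.547%). The 120 bases before the start are shown with the motif in capitals, for Cxcl1 at chr5:90891125-90891244, plus strand, 71 bases before the start, and for Nfkbia at chr12:55492648-55492767, minus strand, where the match lies on the opposite strand and begins 29 bases before the start.
Cxcl1: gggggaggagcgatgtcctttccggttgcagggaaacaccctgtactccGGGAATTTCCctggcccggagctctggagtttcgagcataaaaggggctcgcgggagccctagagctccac
Nfkbia: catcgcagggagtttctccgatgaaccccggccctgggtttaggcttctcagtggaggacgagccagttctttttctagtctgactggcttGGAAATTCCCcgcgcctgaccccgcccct

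Other targets were unlike in size or direction. Saa3, an acute phase protein, rose by 1.18 with endogenous and by 4.26 with transfected mutant p53 (difference -3.08, limma adjusted p = 8.85e-06). Cxcl2 read 6.89, 7.7 and 7.26 in fl-CCs, 7.43, 7.73 and 7.66 in mt-CCs, 5.5, 6.24 and 6.02 with EV and 8.09, 7.75 and 8.04 with R175H, and was called only in the transfected setting. With fl-CCs as the control its difference was -0.35 (limma adjusted p = 0.254). Cfb, complement factor B, and Ccl20, a chemokine, fell by 2.39 and 3.17 in mt-CCs and rose by 2.72 and 0.9 with R175H. Tnfaip3, an inhibitor of NFkB signaling, fell by 0.79 and rose by 0.32. The motif was in no window of the 619 genes of the first opposite class and in 2 of the 635 of the second (0.315%).

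The reverse pattern, higher with endogenous and lower with transfected mutant p53, was led by Pdlim4, Nptx1 and Dclk1 among others. Pdlim4, an actin-associated LIM protein, read 6.19, 6.59 and 6.88 in fl-CCs, 9.66, 9.55 and 9.57 in mt-CCs, 8.94, 8.81 and 8.98 with EV and 5.99, 5.86 and 6.05 with R175H. The changes were 3.04 and -2.95 (difference 5.98, SE 0.2, limma adjusted p = 9.91e-10). Ppp1r1b, an inhibitor of protein phosphatase 1 also known as DARPP-32, read 7.59, 7.61 and 7.52 in fl-CCs, 9.56, 9.72 and 9.61 in mt-CCs, 7.5, 7.54 and 7.53 with EV and 4.57, 4.93 and 4.93 with R175H. Here EV and fl-CCs were at the same level within their spread (EV minus fl-CCs -0.04, SE 0.1). Snap25, a SNARE protein of vesicle fusion, rose by 1.97 in mt-CCs and fell by at least 3.66 with R175H. Dclk1, a doublecortin-like kinase, read 5.64, 6.25 and 5.83 in fl-CCs, 8.98, 8.9 and 9.08 in mt-CCs, 7.19, 7.56 and 7.41 with EV and 5.05, 5.06 and 4.72 with R175H. Pdk4, a kinase that shuts pyruvate dehydrogenase, changed by 1.84 and -1.86, and Stc2, a secreted glycoprotein of stressed cells, by 1.81 and -1.68. Among the 12 genes plotted, EV was called above fl-CCs in 10, and R175H was called below fl-CCs in 8 and not called in 4. The ranking took genes with low fl-CC and high EV levels, so EV above fl-CCs was favored by the choice. Over all genes, EV against fl-CCs was called in 16.5%, in either direction.

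**Figure D3:**
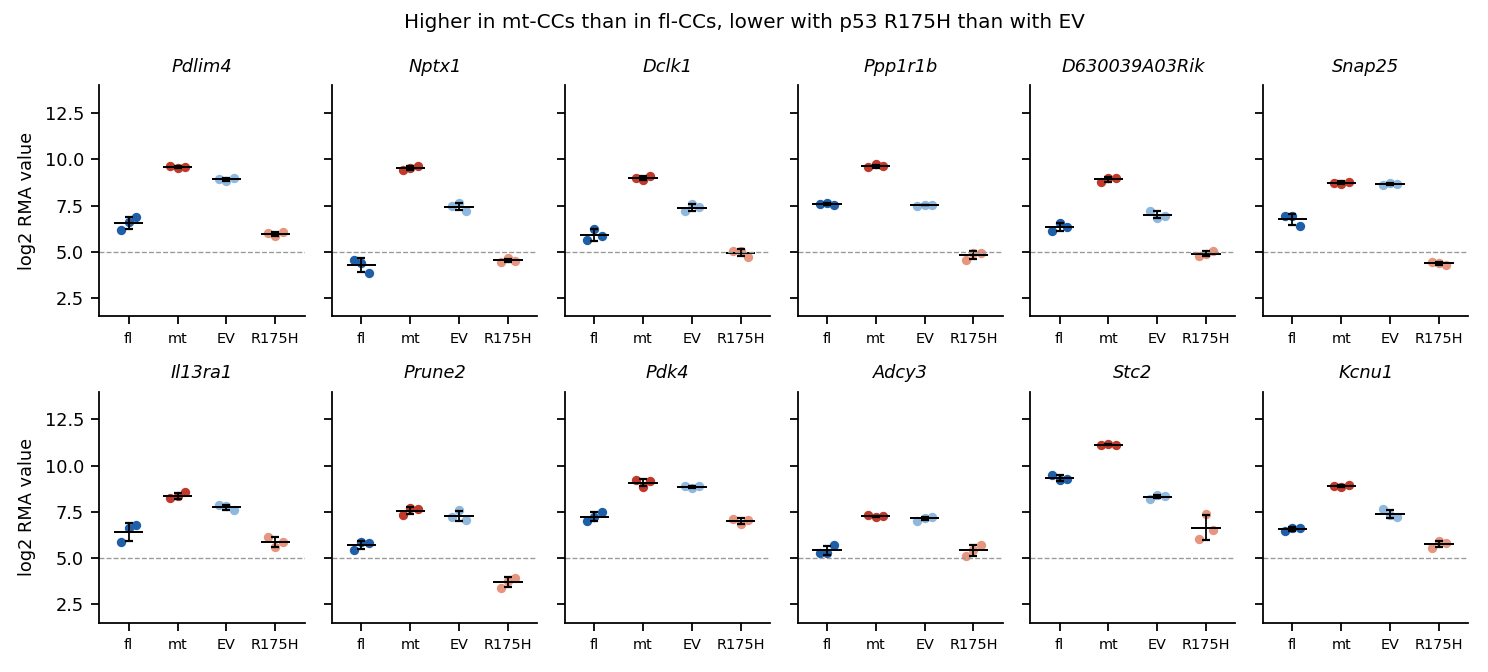
The log2 RMA value of every array is plotted for the 12 genes that rose from fl-CCs to mt-CCs and were lower with p53 R175H than with EV, with the mean as a line and the SD as the error bar (3 arrays per group); the dashed line marks a level of 5. Differences between the settings ran from 3.49 to 8.17.

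Of 39 measured targets of wild-type p53, 5 rose with endogenous and fell with transfected mutant p53 (4.47% of all genes). The difference was higher in 15 and lower in 10 (64.1% called, against 39.4% of all genes and 54.2% of the brighter genes; median 0.21). Phlda3, an inhibitor of AKT signaling, read 8.69, 8.6 and 8.57 in fl-CCs, 9.95, 10.41 and 10.27 in mt-CCs, 9.47, 9.3 and 9.45 with EV and 7.69, 7.89 and 7.81 with R175H. EV and R175H lay on either side of fl-CCs, and the difference was 3.2 (SE 0.17, limma adjusted p = 3.43e-08). Sesn1, a stress sensor that lowers mTORC1 activity, changed by 1.48 and -0.62, and Rrm2b, a ribonucleotide reductase subunit, by 0.8 and -0.45. Cdkn1a, the cell cycle inhibitor p21, changed by 0.51, not called, and fell by 1.17 with R175H (difference 1.68, limma adjusted p = 0.0069). Dram1, a lysosomal membrane protein, rose by 4.81 in mt-CCs (transfected change -0.37, not called). Fas, a death receptor, rose with R175H by at least 1.75 and was at or near background in the other groups. Perp, a desmosomal protein, fell in both, by 3.27 and 0.84.

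Of 48 measured genes that report ERK signaling, 21 fell and 3 rose with R175H (13.3% and 13.4% of all genes), and 17 rose and 14 fell in mt-CCs (20.2% and 19.4%). The difference was higher in 21 and lower in 12 (68.8% called, against 39.4% of all genes and 54.2% of the brighter genes; median 0.39), and 8 rose with endogenous and fell with transfected mutant p53 (4.47% of all genes). Against parental fl-CCs in place of EV, 18 were higher and 16 lower. The mean level of the list was 8.36 to 8.54 in fl-CC, 8.69 to 8.74 in EV and 8.4 to 8.52 in R175H arrays. Etv4 and Etv5, ETS factors induced by ERK, changed by 1.44 and 0.34 in the endogenous and by -0.85 and -0.74 in the transfected setting. Dusp10 and Spry2, feedback inhibitors of kinase signaling, changed by 1.31 and 0.43 and by -1.17 and -0.93. Egr1, an early response factor, fell by 1.01 with R175H, but EV stood 1.16 above fl-CCs, and with fl-CCs as the control its difference turned from 0.97 to -0.20 (limma adjusted p = 0.372). Nr4a2, a nuclear receptor, was the 1 member with the reverse pattern, at -1.99 and 0.94. Dusp6, which removes phosphate from ERK, was not called (difference 0.36, SE 0.16, limma adjusted p = 0.128; 0.46 and 0.0427 without mt-CC replicate 1).

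Secreted factors were more often higher than lower in the difference, 27 against 10 of 62 measured (20.1% and 19.3% of all genes; 59.7% called, against 39.4% of all and 54.2% of the brighter genes; median 0.34). With fl-CCs in place of EV as the control, 25 were higher and 16 lower. Opposite changes of the first kind included Wnt4, at 2.93 and -0.84, Tgfb2, at 1.51 and -1.12, Bmp4, at 1.26 and -0.41, and Kitl, the ligand of KIT, at 0.8 and -0.43. Bmp4 had means of 8.97 in fl-CCs, 9.44 with EV and 9.03 with R175H. Il1rn, the natural antagonist of the interleukin-1 receptor, read 7.67, 7.68 and 7.62 in fl-CCs, 10.2, 10.12 and 10.17 in mt-CCs, 9.22, 9.33 and 9.22 with EV and 8.01, 7.97 and 7.77 with R175H. The EV arrays lay 1.6 above those of fl-CCs on average, and R175H was close to fl-CCs. Angpt2, a ligand of the TIE2 receptor, rose by 2.55 with R175H and changed by 0.22, not called, in mt-CCs. Its means were 6.99 in fl-CCs, 5.32 with EV and 7.87 with R175H. Grem1, a BMP antagonist, read 5.21, 5.02 and 5.11 in fl-CCs, 12.49, 12.36 and 12.42 in mt-CCs, 5.39, 5.25 and 5.31 with EV and 6.53, 5.56 and 5.87 with R175H. It rose in both settings, by 7.31 and 0.67, the former being larger (difference 6.64, limma adjusted p = 3.27e-09).

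Genes of glycolysis and of the response to low oxygen fell in the transfected setting. Of 36 measured, 24 fell and none rose with R175H relative to EV (13.3% and 13.4% of all genes), while 8 rose and 12 fell in mt-CCs relative to fl-CCs (20.2% and 19.4% of all genes). The difference was higher in 19 and lower in 3 (61.1% called, against 39.4% of all and 54.2% of the brighter genes; median 0.62), and lower in 5 with fl-CCs as the control. Aldoc, a form of the glycolytic enzyme aldolase, read 8.4, 9.22 and 9.15 in fl-CCs, 8.74, 8.9 and 8.82 in mt-CCs, 9.71, 9.94 and 10.0 with EV and 7.33, 6.69 and 6.79 with R175H. The fl-CC and mt-CC arrays overlapped in level and the R175H arrays were below all others. The transfected change was -2.94 (SE 0.21) and the endogenous change -0.11 (SE 0.21; difference limma adjusted p = 1.86e-05). Pfkp, a phosphofructokinase, fell by 2.01 with R175H and changed by 0.11, not called, in mt-CCs. Egln3, an oxygen sensor that marks HIF for destruction, and P4ha1 and P4ha2, which hydroxylate collagen, rose by 0.44, 0.7 and 1.0 in mt-CCs and fell by 2.21, 1.13 and 2.29 with R175H. Vegfa, the angiogenic factor, fell by 0.82 with R175H (difference 0.9), but its brightest probe set gave 0.15 (limma adjusted p = 0.733). Car9, a carbonic anhydrase induced by HIF, went another way, with 7.98, 8.69 and 8.45 in fl-CCs, 4.86, 4.97 and 5.21 in mt-CCs, 6.22, 6.32 and 6.21 with EV and 6.35, 6.31 and 6.57 with R175H. It fell by 3.36 in mt-CCs, was not called between R175H and EV, and was lower in both than in fl-CCs.

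**Figure D4:**
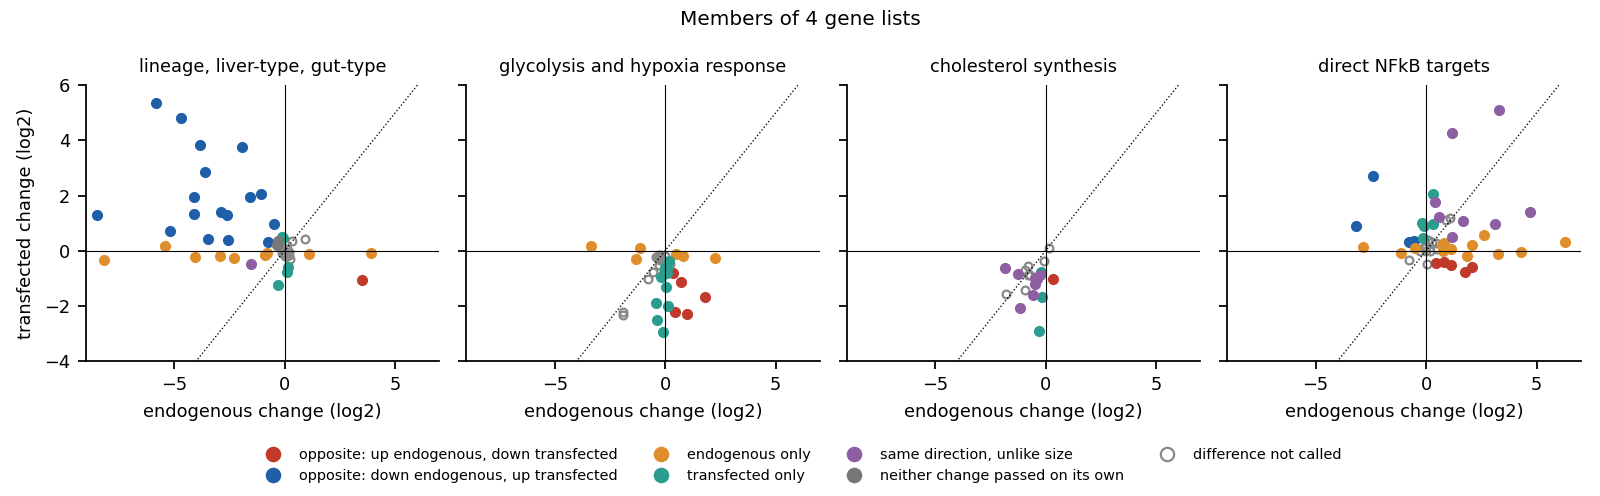
Each point is a measured member of 1 of 4 gene lists, with its endogenous change on the x axis and its transfected change on the y axis (log2), coloured by class; open points were not called for the difference, and the dotted line marks equal changes. Lineage and liver-type genes spread to the upper left, whereas glycolysis and cholesterol genes lie mostly below 0 on the y axis.

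Most genes of cholesterol synthesis fell in both settings. Of 20 measured genes, 19 fell and none rose with R175H (13.3% and 13.4% of all genes), and 14 fell and 1 rose in mt-CCs (19.4% and 20.2%). The median change was -0.95 in the transfected and -0.53 in the endogenous setting, and the difference was higher in 10 and lower in 2 (60.0% called, against 39.4% of all and 54.2% of the brighter genes; median 0.48), and lower in 4 with fl-CCs as the control. Lss, lanosterol synthase, read 8.67, 9.01 and 9.14 in fl-CCs, 8.64, 8.64 and 8.6 in mt-CCs, 10.11, 10.2 and 10.33 with EV and 7.69, 7.08 and 7.13 with R175H. The R175H arrays were the lowest, and EV was 1.27 above fl-CCs. Its changes were -0.32 (SE 0.16, not called) and -2.92 (SE 0.16; difference 2.6, limma adjusted p = 3.7e-06). Both other probe sets of Lss were called in both settings, with endogenous changes of -0.59 and -0.68 and transfected changes of -1.67 and -1.75. Sqle, squalene epoxidase, fell by 0.48 and 1.21, and Hmgcs1, an early enzyme of the pathway, by 0.39 and 1.04. Mvd and Idi1 fell in both settings without a called difference, Mvd by 1.81 and 1.58 (difference -0.23, SE 0.18, limma adjusted p = 0.418) and Idi1 by 0.79 and 0.57 (difference -0.22, SE 0.14, limma adjusted p = 0.297). With fl-CCs as the control, both were called, at -0.43 (limma adjusted p = 0.0238) and -0.41 (limma adjusted p = 0.00628). Of 20 genes of fatty acid synthesis, 12 fell and none rose with R175H (13.3% and 13.4% of all genes), and 9 fell and 2 rose in mt-CCs (19.4% and 20.2%). Scd1, the stearoyl-CoA desaturase, fell by 1.03 with R175H and changed by -0.18, not called, in mt-CCs. Its other probe set fell in both, by 0.43 in mt-CCs and 1.6 with R175H.

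By the probe set with the smallest p, the highest-ranked genes called in the transfected but not the endogenous setting were Bcat1, Ndnf, Aldoc, Lss and Kcnk5, which fell, and Cxxc4, Usp29, Eid2, Prss23 and Cdyl2, which rose. For Cxxc4 another probe set rose in both settings, by 1.89 and 3.71, so that its class depended on the probe set. Bcat1, which breaks down branched-chain amino acids, read 9.46, 9.04 and 8.7 in fl-CCs, 8.83, 8.89 and 8.55 in mt-CCs, 10.12, 9.91 and 9.96 with EV and 6.36, 6.65 and 6.63 with R175H. Prss23, a serine protease, read 8.37, 8.92 and 8.79 in fl-CCs, 9.03, 9.05 and 9.12 in mt-CCs, 6.15, 6.07 and 5.79 with EV and 9.18, 9.33 and 9.37 with R175H. For Bcat1 the R175H arrays stood apart from the other groups, whereas for Prss23 the EV arrays did. With fl-CCs as the control, the difference for Prss23 was -0.23 (limma adjusted p = 0.254) in place of -2.92, and that for Ndnf, a secreted neurotrophic factor, 0.70 (limma adjusted p = 0.0668) in place of 3.38.

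Changes called in the endogenous setting and not in the transfected setting were the most frequent class and included falls of epithelial genes. Of 57 genes of epithelial junctions and keratins, the difference was lower in 29 and higher in 7 (63.2% called, against 39.4% of all and 54.2% of the brighter genes; median -0.8), and 34 fell and 6 rose in mt-CCs (19.4% and 20.2% of all genes). Dsp, the desmosome protein desmoplakin, read 11.21, 11.41 and 11.55 in fl-CCs, 4.03, 3.0 and 3.32 in mt-CCs, a mean of 10.96 ± 0.05 (SD, n = 3) with EV and 11.59, 11.31 and 11.3 with R175H. All mt-CC arrays were near background and the other groups were close together. Tm4sf1, a tetraspanin-like surface protein, fell by 6.89 in mt-CCs and changed by 0.14, not called, with R175H. Cdh1, E-cadherin, fell by 2.24 in mt-CCs and rose by 0.28 with R175H. Ocln, a tight junction protein, fell by 1.38 and rose by 1.26. Of the 10 epithelial and ductal markers, most of them also in the list above, 6 were lower and 2 higher in the difference. The share called was 80.0%, against 39.4% of all and 54.2% of the brighter genes. Their mean level was 11.02 to 11.24 in fl-CC arrays and 8.97 to 8.98 in mt-CC arrays. Krt19, the ductal keratin, stayed high in all groups, at means of 13.66, 13.68, 13.64 and 13.24 in fl-CCs, mt-CCs, EV and R175H.

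Mesenchymal genes rose more often than they fell in mt-CCs, 29 against 4 (20.2% and 19.4% of all genes). Of 49 measured, the difference was higher in 26 and lower in 4 (20.1% and 19.3% of all genes; 61.2% called, against 39.4% of all and 54.2% of the brighter genes; median 0.62). The change was called in the endogenous and not in the transfected setting in 20 (17.7% of all genes). Col3a1, a fibrillar collagen, read 9.64, 9.44 and 9.4 in mt-CCs and was near background elsewhere, a rise of at least 4.5. Fstl1, a secreted BMP modulator, rose by at least 5.41. Among 59 basement membrane and matrix genes, 28 were higher and 11 lower in the difference (66.1% called, against 39.4% and 54.2%; median 0.46). Tgfbi, a TGFb-induced matrix protein, rose by at least 3.9 in mt-CCs, and Vcan, the proteoglycan versican, rose by 3.8 and fell by 0.38 with R175H. Nid1, a basement membrane protein, rose by 1.44 with R175H and changed by -0.01, not called, in mt-CCs, while another probe set of it rose in both, by 1.67 and 0.75. Hspg2, which encodes the basement membrane proteoglycan perlecan, changed by 0.52 (SE 0.13) in mt-CCs and 0.02 (SE 0.13) with R175H, and the difference of 0.5 (SE 0.19) was not called (limma adjusted p = 0.0714). It was called when low probe sets were left out before the adjustment (limma adjusted p = 0.0454), with an intensity trend in the variance (limma adjusted p = 0.0452), with parental fl-CCs as the control (0.5, limma adjusted p = 0.0118), and without R175H replicate 1 (0.64, limma adjusted p = 0.0156).

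Most fibroblast markers are also members of the mesenchymal list above, so their counts are not separate from it. Of 15 markers, 6 were higher and 1 lower in the difference (46.7% called, against 39.4% of all and 54.2% of the brighter genes). In every array 7 were near background. The mean level of the markers was 4.0 to 4.03 in fl-CC, 5.16 to 5.22 in mt-CC, 4.01 to 4.07 in EV and 4.1 to 4.14 in R175H arrays. Col1a1, the main collagen of fibroblasts, had means of 5.37, 7.95, 5.78 and 5.72 in the same order. Their part in the mesenchymal and matrix results was not tested, and in RNA of whole cultures more cells of a type cannot be told apart from more RNA per cell. Of 13 leukocyte markers, 1 was higher and 1 lower in the difference (15.4% called), and of 10 endothelial markers 1 was lower (10.0% called, against 39.4% of all genes). Near background in every array were 9 of the leukocyte and 9 of the endothelial markers. None of 5 acinar and 7 endocrine markers was called in limma's test of the difference.

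Interferon-stimulated genes and MHC class I genes, which present antigens to T cells, were more often higher than lower in the difference. Of 45 interferon-stimulated genes, 23 were higher and 6 lower (20.1% and 19.3% of all genes; 64.4% called, against 39.4% of all and 54.2% of the brighter genes; median 0.46). Ifitm3, an antiviral membrane protein, rose by 4.25 in mt-CCs and 0.5 with R175H, and Bst2, tetherin, rose by 0.85 and fell by 0.31. Of 16 MHC class I and antigen processing genes, 8 were higher, none was lower and 8 were not called (median 0.49). Over all genes, 20.1% were higher and 19.3% lower. The share of this list that was called lay between the 39.4% of all and the 54.2% of the brighter genes. H2-D1, a classical class I heavy chain with close copies, read 9.63, 9.49 and 9.22 in fl-CCs, 10.46, 10.71 and 10.44 in mt-CCs, 9.69, 9.51 and 9.57 with EV and 8.98, 9.28 and 9.1 with R175H. It rose by 1.09 and fell by 0.47 (difference 1.56, limma adjusted p = 3.23e-05).

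Stress response genes of the unfolded protein and integrated stress responses fell more often than they rose with R175H. Of 44, 19 fell and 3 rose with R175H (13.3% and 13.4% of all genes), and 15 rose and 10 fell in mt-CCs (20.2% and 19.4%). The difference was higher in 17, lower in 5 and not called in 22, while 39.4% of all and 54.2% of the brighter genes were called (median 0.37). With fl-CCs as the control, 22 were higher and 9 lower. Ddit3, the stress factor CHOP, rose by 1.45 and fell by 0.74, and Trib3, a pseudokinase it induces, rose by 0.8 and fell by 0.68. Atf4, the central factor of the integrated stress response, fell by 0.62 with R175H (difference 0.64), but its brightest probe set gave the other sign, -0.39 (limma adjusted p = 0.126).

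Genes of DNA replication and mitosis were mostly not called. Of 43 DNA replication genes, 11 were lower and 2 higher (30.2% called, below the 39.4% of all genes; median -0.34), and of 45 mitotic genes 14 were lower and 7 higher (46.7%, against 54.2% of the brighter genes; median -0.38). These counts turned with the control. With fl-CCs in place of EV, which compares mt-CCs directly with R175H cells, 11 DNA replication genes were higher and 6 lower. Of the mitotic genes, 36 were higher and 2 lower. Some were lower with EV than in fl-CCs, among them Plk1, a mitotic kinase, by 1.34, Aurka, another, by 1.1, and Bub1, a checkpoint kinase, by 0.9. With fl-CCs as the control, the difference for Plk1 went from -1.36 to -0.02, for Aurka from -0.53 to 0.57 and for Bub1 from -0.86 to 0.04. The call for Aurka (limma adjusted p = 0.0435) was lost in most fits that left out 1 array, with every group among those left out, and that for Bub1 (limma adjusted p = 0.0228) without EV replicate 3 (0.0564) or R175H replicate 1 (0.0547). Of 35 genes of the NRF2 pathway and cystine import, 9 were higher and 14 lower (median -0.34). The share called was 65.7%, against 39.4% of all and 54.2% of the brighter genes. With fl-CCs as the control, 18 were higher and 9 lower. Cat, catalase, fell by 0.67 in mt-CCs and rose by 0.57 with R175H. Nqo1, a quinone reductase, rose in both settings, by 1.4 and 1.92 (difference -0.52, limma adjusted p = 0.222; -0.77 and 0.0322 without EV replicate 3), and EV lay 1.51 below fl-CCs. Of 42 TGFb, BMP and YAP response genes, 13 were higher and 10 lower (54.8%, close to the 54.2% of the brighter genes; median -0.08). Tgfbr3, a TGFb co-receptor, read 11.16, 11.27 and 11.23 in mt-CCs against means of 4.99, 4.74 and 4.59 in fl-CCs, EV and R175H, and Tgfbr2, a signaling receptor, fell by 0.56 and rose by 0.36.

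**Figure D5:**
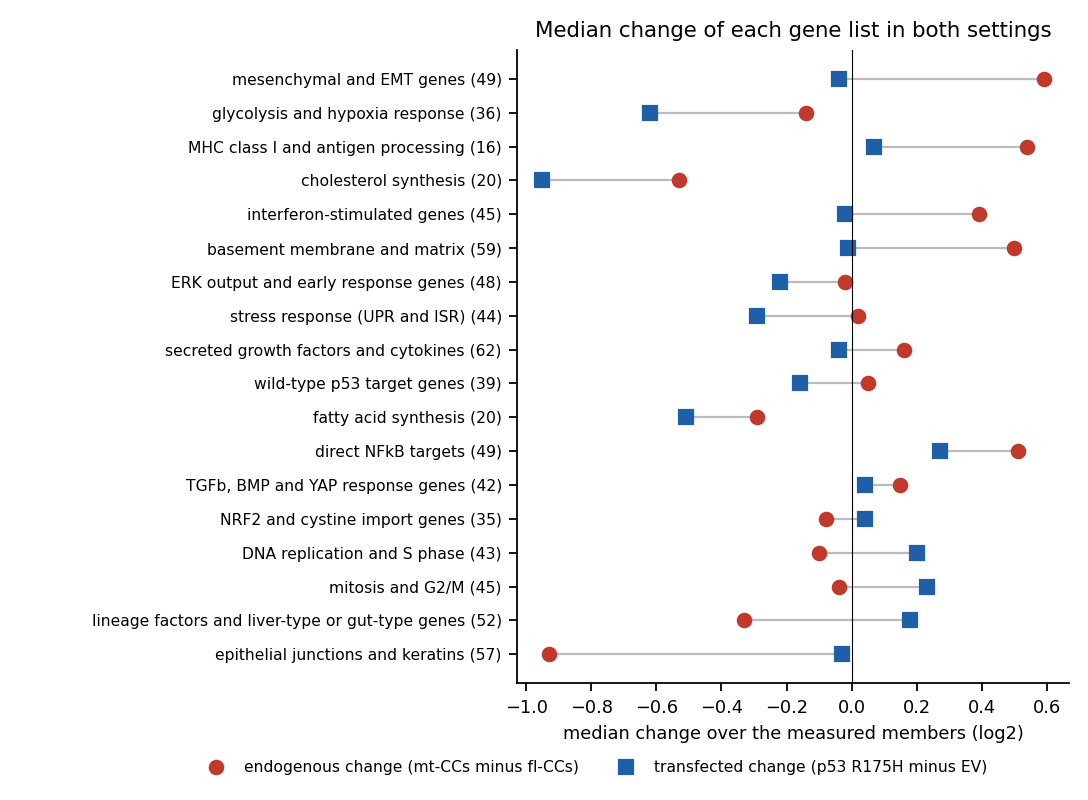
For each of 18 gene lists, with the number of measured members in parentheses, the red circle is the median endogenous change (mt-CCs minus fl-CCs) and the blue square the median transfected change (p53 R175H minus EV), in log2 units. The medians ran from -0.93 to 0.59 in the endogenous and from -0.95 to 0.27 in the transfected setting, against -0.01 over all genes in both.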

How the data were processed

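Expression was measured on Affymetrix mouse GeneChip arrays in 4 groups of 3 cultures. The deposited values are log2 levels that the authors made by RMA summarization and normalization (from the submitters' processing notes, which give no RMA version); once sorted, no pair of arrays was more than 0.018 apart at any rank. The array number limits the precision.

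Of 45101 probe sets, 64 controls were left out. Per the platform annotation, 34945 had 1 gene symbol, 932 several and 9160 none; only the first were used for genes, giving 18193, and 34754 matched RefSeq by gene ID. Trp53 was not analysed here, and 1 further allele that all groups share is not reported here. The coordinates of promoters are those of RefSeq (GRCm38.p6); the deposited table holds none.

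A fit of group means over all 12 arrays (limma 3.58.1 in R 4.3.3, lmFit and eBayes) gave (mt-CCs minus fl-CCs) minus (R175H minus EV) and its components, with Benjamini-Hochberg adjustment over all probe sets at 0.05 and no fold limit. A gene took its probe set with the smallest p in that difference. Python 3.11.15, pandas 2.3.3 and matplotlib 3.10.9 made tables and plots. On simulated data with the real group structure and 200 changed probe sets per size, the fit recovered 19 of those changed by 0.5, 121 of those changed by 1 and 191 of those changed by 2 on the log2 scale; 17 of 348 calls were false. All other simulated probe sets were unchanged, whereas 26.8% of the real ones were called. These recoveries therefore do not give the sensitivity in the real data.

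Replicate numbers did not pair the samples: the 18 correlations of same-numbered deviations ran from -0.09 to 0.06. Genes were named by a rule, from called genes whose brightest probe set had the same sign: the largest opposite, 1-setting and unlike-size changes (group means under 5 set to 5), the most extreme members of each list, and genes of interest to the study. A further 68 genes were named after their values were seen. The members and lists were chosen with earlier results of these data known. Alternatives were the replicate block, other variance models, filters, scalings, controls, probe sets per gene, a fold limit and each array left out.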

Additional observations from a re-analysis of the deposited data

Results flagged for a closer look

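The endogenous and transfected changes differed, by the limma test of their difference, for 813 genes that rose with the endogenous and fell with the transfected form and for 763 of the reverse kind. Among genes of interest to the study, the difference between the settings was 1.64 for Bcl2, -0.66 for Cxcl1, 5.96 for Cxcl12, 0.68 for Nfkbia, 2.67 for Tnfrsf9 and 4.33 for Tnfsf11 on the log2 scale. For Cxcl12 and Tnfsf11 the fl-CC, EV and R175H groups were near background, so these values, as fitted, are no measured fold.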

How the results depend on the processing

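Counts over all probe sets and of the classes stayed within 1.5 times of those reported under every alternative run on them except a minimum absolute log2 change of 1. Counts of gene lists, not run under that limit, moved by over 1.5 times in 74 cases and stayed within it in 1126; parental fl-CCs as the control moved 15 of them, no other setting over 5. The limit left 2640 probe sets higher and 2375 lower in the difference, 77 and 132 opposite genes, 1449 changed in the endogenous and 320 in the transfected setting only, and 105 of unlike size. With the replicate block, 5870 probe sets were higher and 5693 lower, and 726 and 686 genes opposite; the numbers do not pair the samples. Leaving out each array in turn gave 5505 to 5953 higher, 5297 to 5713 lower, 629 to 812 and 600 to 739 opposite, 2921 to 3299 endogenous only, 1177 to 1535 transfected only and 391 to 524 of unlike size. With parental fl-CCs in place of EV as the control, the difference turned sign for Cbr3 (0.61), Cxcl1 (0.24), Egr1 (-0.20) and Dusp6 (-0.23). It also turned for Aurka (0.57), Bub1 (0.04), Nqo1 (0.99) and Kdm5d (0.09). With this control the fl-CC arrays cancel out, and the difference is mt-CCs minus R175H cells. It departs from the reported difference by exactly the change from fl-CCs to EV. Why EV and fl-CCs differ was not tested. At the brightest probe set the sign turned for Atf4 (-0.39). Classes were not computed with fl-CCs as the control, since both changes would share those arrays. Of 143 genes named by the rule, 117 kept direction and side of the threshold under every alternative run and 2 turned sign; of the 68 named after their values were seen, 42 did and 7 turned sign. Changes into or out of levels near background are bounds.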
